A study of Mus musculus with 6 samples.

Results

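The epidermal differentiation complex is a cluster of genes on mouse chromosome 3 that encodes most of the proteins of the cornified envelope. Here its envelope genes were taken from the deposited coverage table by symbol: every row that begins with Lce or Sprr and a digit, and the rows Flg2, Lor, Ivl, Hrnr, Rptn, Crnn and Kprp, with S100 genes left out. The rule gave 44 rows of 23518, and they lie between positions 92080271 and 93399442 of chromosome 3 (GRCm38). They were 14 Lce1 genes, 6 Lce3 genes, Lce6a, 2 Sprr1 genes, 12 Sprr2 genes, Sprr3, Sprr4, the 4 fused S100 genes Flg2, Hrnr, Rptn and Crnn, and the single genes Lor, Ivl and Kprp. Flg, which the rule also names, was not analysed here. Sprr2a1 and Sprr2a2 held the same value in every library and were counted once, which left 43 different measurements.

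The cornified envelope is the tough protein shell that replaces the plasma membrane of a keratinocyte in the outermost layers of skin. Loricrin, involucrin, the small proline-rich (SPRR) proteins and the late cornified envelope (LCE) proteins are its building blocks, and transglutaminases crosslink them into an insoluble sheet. The fused S100 proteins join an S100-type calcium-binding domain to long repeats, and several are carried in keratohyalin granules. Lor and the Lce1 genes belong to the normal late programme of the epidermis, while the Lce3 and several Sprr genes are known for their induction in wounded, psoriatic or irritated skin.

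RNA was sequenced from ear skin of wild-type (WT) mice and of mice with the genotype HdR, which the series describes as HOIL1 ΔRING1, with 3 samples of each. HOIL1, the product of Rbck1, is a subunit of the complex that builds linear ubiquitin chains. All 6 samples had received 10 mg of a cream with 5% imiquimod, an agonist of a Toll-like receptor that induces psoriasis-like inflammation, and were taken on day 1, so skin without imiquimod was not compared. The age, sex and strain of the mice, the cells in which the HdR allele acts and whether each sample was a separate animal were not stated by the labels used here, and p-values measure the spread between these samples. Each value was read, from the numbers themselves, as a sum of aligned bases per gene, and levels are given below as bases per Mb of scaled library (coverage). The libraries held 4433 to 5966 Mb, so that 1 base per Mb stood for 11.7 to 23.6 read pairs. Each change is the HdR mean less the WT mean of log2(coverage + 1), which understates the change of low genes.

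Coverage of Rbck1 was 66.6, 55.1 and 64.1 in WT, against 23.9, 12.997 and 19.7 in HdR, lower in every HdR sample (log2 change -1.70; adjusted p = 0.00438 by limma). The sum runs over the whole gene, so it does not show which part was deleted. Over all 15049 genes tested with limma, 30.6% passed a Benjamini-Hochberg threshold of 0.05, with 12.7% higher and 17.9% lower in HdR skin. Transcript length moved with the genotypes. The slope of each library's log2 coverage on log2 transcript length, about the mean of all libraries, was 0.0404 to 0.247 in WT and -0.272 to -0.0805 in HdR, so short transcripts read relatively higher in HdR libraries. Of the 36 different Lce and Sprr rows, 33 had a longest transcript under 1 kb, and Lce transcripts ran from 491 to 925 bases. Values with this length trend removed from each library are therefore given beside the members.

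Markers of keratinocytes were abundant in all samples. Those of suprabasal cells (10 genes, none at 0) summed to 13138 to 14803 bases per Mb in WT and 11104 to 14146 in HdR, with 1 gene called higher (Calm5) and 1 lower (Krt1). With the length trend removed, 0 suprabasal markers were called in either direction. Those of basal cells (9 genes, none at 0) summed to 6376 to 7405 in WT and 4605 to 5375 in HdR, with 0 called higher and 2 lower (Dst and Krt14). At an unadjusted p under 0.05, limma also counted 0 higher basal genes, as did voom at an adjusted p under 0.05. With the length trend removed, limma called 1 basal gene higher (Trp63, log2 change 0.55, adjusted p = 0.0312) and 1 lower (Krt14). Dst did not pass then (log2 change -0.28; adjusted p = 0.249 by limma). Markers of the inner root sheath and hair shaft (12 genes, none at 0) summed to 617 to 936 in WT and 38.1 to 148 in HdR, and 12 of 12 were called lower. Neutrophil markers (9 genes, 6 tested) summed to 142 to 198 in WT and 699 to 3187 in HdR, with 5 called higher. Most of that sum was S100a8 and S100a9, with 1421 and 1708 in HdR replicate 2 and 244 and 396 in HdR replicate 3. It is therefore mainly a measure of these genes. Retnlg and Mmp8 were among the other genes called higher, and 1 tested gene did not pass. Macrophage markers (7 genes) summed to 616 to 1132 in WT and 1914 to 2334 in HdR, with 5 called higher. Calls among the other markers were 2 lower of 6 in fibroblasts, 1 lower of 5 in endothelium, 2 higher of 5 in skeletal muscle and 4 higher of 5 in adipocytes. In sebaceous gland and cartilage 0 of 7 and 0 of 4 were called. There the unadjusted p was under 0.05 for 2 and 0 genes, and voom called 2 and 3, beside 8045 of all 15049 genes. With the length trend removed, calls were 1 higher and 1 lower in fibroblasts, 0 in endothelium, 1 higher in skeletal muscle and 4 higher in adipocytes. In cartilage 1 was then lower, in sebaceous gland 0 were called, and in macrophages 4 were higher. In bulk tissue, fewer cells of a type and less RNA per cell cannot be told apart, and the part of these shifts in the results below was not tested.

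The promoters of members on which the results turn are shown to compare genes that moved with neighbours that did not pass. RefSeq promoters on GRCm38 were matched for 40 of the 44 rows, and the last 120 bases before the annotated start are printed 5′ to 3′ on the gene's strand. Capitals mark the TATA box letters TATAAA and the AP-1 letters TGANTCA, searched on both strands.
Crnn: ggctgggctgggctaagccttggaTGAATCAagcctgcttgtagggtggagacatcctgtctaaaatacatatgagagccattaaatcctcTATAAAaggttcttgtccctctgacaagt
Rptn: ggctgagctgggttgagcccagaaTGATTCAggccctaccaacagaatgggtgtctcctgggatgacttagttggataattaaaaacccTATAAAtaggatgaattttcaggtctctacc
Flg2: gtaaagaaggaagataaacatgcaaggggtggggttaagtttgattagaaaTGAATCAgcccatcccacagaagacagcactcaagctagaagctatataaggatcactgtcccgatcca
Hrnr: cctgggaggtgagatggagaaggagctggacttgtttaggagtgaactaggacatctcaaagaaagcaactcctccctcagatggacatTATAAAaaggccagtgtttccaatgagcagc
Sprr1a: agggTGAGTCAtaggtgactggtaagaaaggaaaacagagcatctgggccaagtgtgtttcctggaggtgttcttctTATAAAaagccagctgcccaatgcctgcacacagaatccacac
Ivl: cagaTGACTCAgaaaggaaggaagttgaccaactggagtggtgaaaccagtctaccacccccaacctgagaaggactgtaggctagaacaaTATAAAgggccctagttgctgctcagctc
Lor: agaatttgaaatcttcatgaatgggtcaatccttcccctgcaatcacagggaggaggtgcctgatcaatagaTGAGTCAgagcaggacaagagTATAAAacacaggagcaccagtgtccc
Sprr2d: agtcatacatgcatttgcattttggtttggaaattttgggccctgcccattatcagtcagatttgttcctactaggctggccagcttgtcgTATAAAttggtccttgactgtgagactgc
Sprr2e: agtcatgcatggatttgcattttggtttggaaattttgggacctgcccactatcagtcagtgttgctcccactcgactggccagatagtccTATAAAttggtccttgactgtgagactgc
Sprr2i: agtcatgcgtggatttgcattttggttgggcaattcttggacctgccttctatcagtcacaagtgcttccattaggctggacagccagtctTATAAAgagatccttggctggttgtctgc

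On the plus strand of GRCm38.p6 these stretches lie at chr3:93144669-93144788 (Crnn), chr3:93393579-93393698 (Rptn), chr3:93197153-93197272 (Flg2), chr3:93319629-93319748 (Hrnr), chr3:92339020-92339139 (Sprr2d), chr3:92352023-92352142 (Sprr2e) and chr3:92407871-92407990 (Sprr2i). On the minus strand they lie at chr3:92485882-92486001 (Sprr1a), chr3:92573736-92573855 (Ivl) and chr3:92083143-92083262 (Lor). All lie just before the RefSeq start of the gene named. The GENCODE spans of Sprr1a (to 92485895) and Crnn (from 93144787) reach into the ends of their stretches. Over the 250 bases before the start, the TATA letters were found in 19 of the 40 member promoters (47.5%), against 14.3% of 27018 genes whose promoters were searched. Not all chromosomes were included in that number, and promoters with an undetermined base were left out. A gene counted when any of its promoters held the letters. AP-1 letters were found in 14 (35.0%, against 7.8%). The letters CNGGTT, the core bound by Grainyhead factors, were found in 22 (55.0%, against 36.9%). The KLF core GGGNGTG was found in 2 (5.0%, against 28.8%) and the xenobiotic response core GCGTG, which can overlap it, in 3 (7.5%, against 30.9%). Members' promoters had a median GC content of 45.4% and those of all genes 52.0%, and paralogues share sequence by descent, so these shares are a description of letters only. Crnn and Sprr1a, which fell, and Flg2 and Sprr2i, which rose, all carried the AP-1 letters within 250 bases. Sprr4, which also fell, held none of the letters searched in that window, and its promoter is not printed because its annotated start may not be that of the transcript. The letters stood 96 bases before the start in Crnn and in Rptn, 69 in Flg2, 48 in Lor and 116 in Ivl. In Sprr1a they stood 116 and 146 bases before the start, and in Sprr2d, Sprr2e and Sprr2i 193 bases before it. The 120 bases of Sprr2e were identical to those of Sprr2d at 107 positions and to those of Sprr2i at 93.

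The changes of the envelope genes lay on both sides of 0, and a few members moved strongly. Of the 38 different members tested, Flg2 and Sprr2i rose and Crnn, Sprr4 and Sprr1a fell in HdR skin (limma, adjusted p under 0.05). That is 13.2% of them, against the 30.6% called over all genes. The log2 change was above 0 in 20 and below 0 in 18, with a median of 0.03, beside -0.13 over all genes tested. The values of the genotypes did not overlap in 12 of the 38 (31.6%), against 51.5% of all genes. The labels state no pairing, and whether same-numbered libraries are more alike than others was not tested. A block on the replicate number was chosen from these same data, in which same-numbered libraries deviated together (r = 0.163, 0.416 and 0.366 across genes). With the replicate number as a block, limma called 5 members higher and 7 lower, against 18.3% and 27.2% of all genes (45.5% together). The members called in addition were Lce1a2, Lce1d and Lce6a, higher, and Ivl, Lce1c, Lce1m and Rptn, lower. With the length trend removed, limma called 2 members higher and 12 lower, against 11.0% and 8.47% of all genes, and the median was -0.42, so the direction of most short members depends on this step. With both steps, 2 were higher and 17 lower, against 16.6% and 14.5% of all genes (31.1% together). The members lower with both steps and with neither step alone were Lce1e, Lce1l, Lce3c and Sprr1b. Without WT replicate 1 or WT replicate 3, neither Flg2 nor Sprr2i passed. Without WT replicate 2, Lce1a2 (adjusted p = 0.0493 by limma), Lce6a (0.0224) and Ivl (0.0108) passed, and without HdR replicate 1 Rptn did (0.0437). Scaling to total bases moved the median of all genes to -0.41 and that of the members to -0.28.

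**Figure D1:**
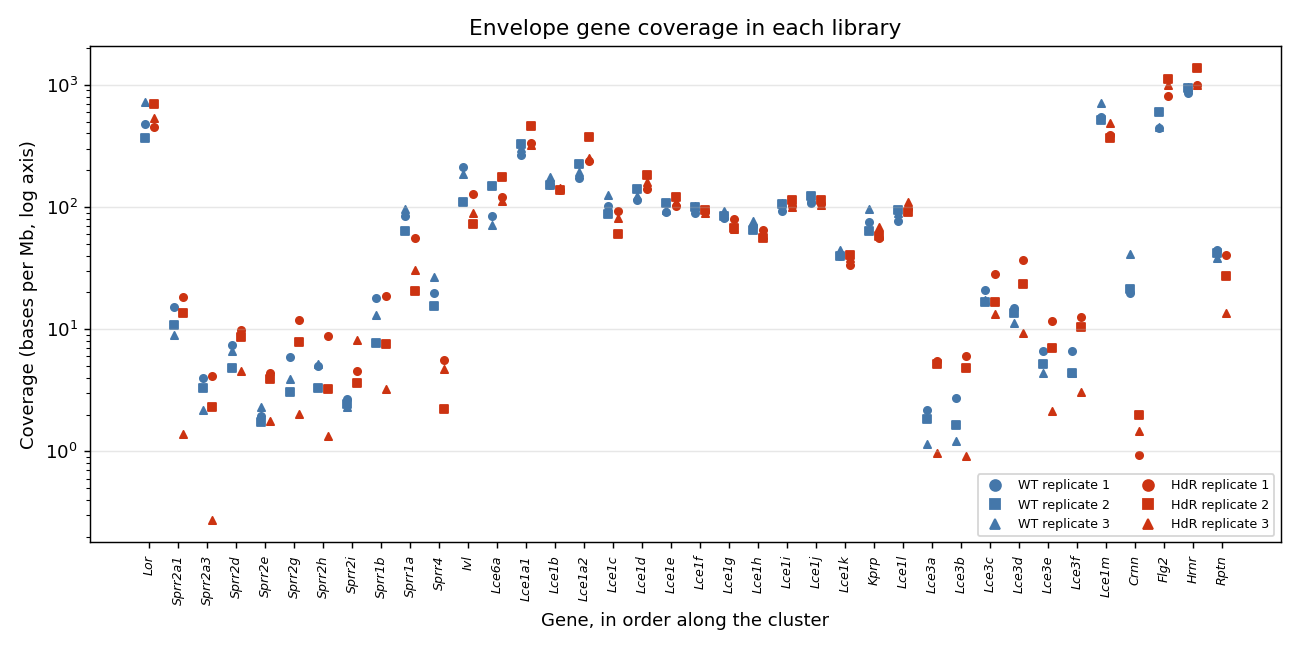
Coverage of each of the 38 tested members in each library (log axis, bases per Mb), in their order along chromosome 3, with WT in blue and HdR in red and a marker shape for each replicate number. Crnn and Sprr4 lie lower in all HdR libraries and Flg2 higher, while in the Sprr2 and Lce3 groups HdR replicate 3 mostly lies lowest.

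Of the fused S100 genes, Crnn fell and Flg2 rose. Crnn encodes cornulin, a protein of squamous epithelia. Its coverage was 19.8, 21.5 and 41.4 in WT, against 0.937, 1.97 and 1.48 in HdR, so no value of one genotype reached the other. The mean was 27.6 ± 11.99 (SD, n = 3) in WT and 1.46 ± 0.518 in HdR, 18.8-fold lower (log2 change -3.48, SE 0.30; adjusted p = 0.00113 by limma), and the log2 change was -3.68 with the length trend removed. It was the largest change among the tested members in either direction. Flg2 encodes filaggrin-2, a repeat protein of the upper epidermis. It read 443, 600 and 447 in WT, against 808, 1114 and 1002 in HdR, again without overlap. Its mean rose from 497 ± 89.3 to 975 ± 155, 1.96-fold (log2 change 0.97, SE 0.22; adjusted p = 0.0160 by limma). Its adjusted p was 0.0850 without WT replicate 1 and 0.0581 without WT replicate 3, with log2 changes of 0.90 and 0.91. Flg2 has the longest transcript of the members, 20803 bases, and rose although long transcripts read lower in HdR libraries in general. Its change was 1.58 with the length trend removed (adjusted p = 0.0137 by limma).

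Hrnr encodes hornerin, a filaggrin-like protein, and read 858, 934 and 965 in WT, against 993, 1357 and 998 in HdR. All HdR values were above all WT values, but the log2 change of 0.27 did not pass (adjusted p = 0.340 by limma). It was 0.86 and passed once the length trend was removed (adjusted p = 0.0353 by limma). Its direction flipped with the scaling, to -0.05 when scaled to total bases and to -0.26 after quantile normalization. Within a library, where scaling plays no part though transcript length still does, Flg2 reached 0.517, 0.642 and 0.464 of the Hrnr coverage in WT and 0.814, 0.821 and 1.00 in HdR. This ratio was higher in each HdR sample than in any WT sample, so the 2 filaggrin-like genes did not keep their proportion. Repeats occur within both: 30.7% of the 150-base windows of the Flg2 transcript and 53.6% of those of Hrnr recur in the same transcript, and none of their windows was found in another gene. Rptn encodes repetin, which is expressed in hair follicles and in papillae of the tongue as well as in epidermis. It read 44.1, 42.1 and 38.1 in WT, against 40.3, 27.4 and 13.5 in HdR, with HdR replicate 1 inside the WT range. Its log2 change of -0.72 did not pass (adjusted p = 0.118 by limma) and passed with the replicate block (adjusted p = 0.0378 by limma).

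Tchh and Tchhl1, the fused S100 genes of trichohyalin and a trichohyalin-like protein, are not among the members, and lie in the same family. Trichohyalin hardens the inner root sheath of hair. Tchh read 194, 342 and 302 in WT, against 12.5, 69.9 and 33.0 in HdR (log2 change -3.09; adjusted p = 0.00858 by limma), and Tchhl1 18.3, 19.1 and 34.1 against 0.555, 2.35 and 2.07 (log2 change -3.24; adjusted p = 0.00222 by limma). Tchh is itself one of the 12 hair markers, all of which were called lower in these samples. Whether the fall of Crnn belongs to the hair follicle or to the epidermis was not tested.

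Among the SPRR genes, Sprr4 and Sprr1a fell. Sprr4 encodes a small proline-rich protein known to be induced by ultraviolet light. Its coverage was 19.6, 15.6 and 26.6 in WT, against 5.57, 2.21 and 4.76 in HdR, with a gap between the genotypes. The mean fell from 20.6 ± 5.55 to 4.18 ± 1.75, 4.93-fold lower (log2 change -2.09, SE 0.30; adjusted p = 0.00582 by limma). Its annotated transcript is a single exon of 231 bases, shorter than a read pair, so its length-corrected change of -2.78 rests on a model that may be incomplete. Sprr1a, one of the SPRR genes used as a marker of keratinocyte differentiation and stress, read 84.1, 63.6 and 95.5 in WT, against 56.1, 20.7 and 30.4 in HdR. Every HdR value was below every WT value, though HdR replicate 1 lay close to WT replicate 2. The mean fell from 81.1 ± 16.2 to 35.7 ± 18.3 (log2 change -1.26, SE 0.32; adjusted p = 0.0237 by limma). The change was -1.82 with the length trend removed. The call of Sprr1a was lost without the first WT library (adjusted p = 0.0808 by limma), the third WT library (0.0669), the second HdR library (0.0698) or the third HdR library (0.0514), with log2 changes from -1.22 to -0.94. It was also lost with no filter on low genes (adjusted p = 0.0645 by limma).

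Sprr1b, the paralogue of Sprr1a, differed more between HdR samples than between genotypes. It read 17.8, 7.72 and 13.1 in WT, against 18.7, 7.59 and 3.25 in HdR (log2 change -0.56; adjusted p = 0.405 by limma; 95% interval -1.70 to 0.58). The highest and the lowest value of all samples were both from HdR skin.

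Of the Sprr2 genes, Sprr2i rose and the other 6 tested did not pass. Sprr2i read 2.70, 2.42 and 2.31 in WT, against 4.52, 3.65 and 8.22 in HdR (log2 change 0.83, SE 0.26; adjusted p = 0.0408 by limma). All HdR values were above the WT values, and HdR replicate 3 was the highest. The call was lost without any library but HdR replicate 2 (limma adjusted p from 0.0522 to 0.108 in the other 5 fits), the log2 change was 0.55 without HdR replicate 3, and it was 0.21 with the length trend removed (adjusted p = 0.680 by limma). Sprr2i did not pass with no filter either (adjusted p = 0.0803 by limma). The other members of the family behaved differently in HdR replicate 3. Sprr2a1 read 15.2, 10.9 and 8.93 in WT, against 18.3, 13.5 and 1.40 in HdR. Sprr2g read 5.95, 3.08 and 3.90 in WT, against 11.9, 7.79 and 2.02 in HdR, and Sprr2d read 7.36, 4.86 and 6.64 against 9.88, 8.61 and 4.51. In each of these genes HdR replicate 1 was the highest of all samples and HdR replicate 3 the lowest. The log2 changes of the 6 ran from -0.55 (Sprr2a3) to 0.48 (Sprr2e), with adjusted p from 0.180 to 0.712 by limma.

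Of the Sprr rows 5 stayed below the filter and were not tested: Sprr2b, Sprr2f, Sprr2j-ps, Sprr2k and Sprr3. Sprr2f read 0.646, 0.269 and 0.736 in WT, against 2.22, 2.49 and 0.860 in HdR. Sprr3, an SPRR gene of the oral cavity and oesophagus, had reads in a single library, with 264 bases in WT replicate 1. Sprr2a1 and Sprr2a2 cannot be told apart in these data. Of the 150-base windows of the Sprr2a1 transcript 89.6% occur in Sprr2a2 or Sprr2a3, and the annotated span of Sprr2a2 (92215920 to 92256724) covers most of Sprr2a1 (92215799 to 92221911). The Sprr2d, Sprr2e, Sprr2f, Sprr2g, Sprr2h and Sprr2i transcripts shared no such window with another gene.

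The summed coverage of the Lce1 genes overlapped between genotypes, while the shares of 7 of the 14 genes within it did not. By coverage, 6 of the 14 genes did not overlap, beside 51.5% of all genes tested, so this number does not set the family apart. Shares within a family have no such value over all genes here. The 14 genes summed to 2006, 2164 and 2350 bases per Mb in WT and 2008, 2278 and 2122 in HdR, and the ranges overlapped. Limma called 0 of the 14, with 1 higher and 1 lower at an unadjusted p under 0.05. Voom with sample weights called 3 higher and 1 lower, beside 3398 higher and 4647 lower of all 15049 genes. Log2 changes ran from -0.51 in Lce1m to 0.52 in Lce1a2, with a median of -0.09. Lce1m, the Lce1 gene with the highest coverage, read 549, 516 and 708 in WT, against 387, 367 and 488 in HdR (adjusted p = 0.0845 by limma, and 0.00850 with the replicate block). Lce1a2 read 174, 224 and 192 in WT, against 239, 372 and 249.3 in HdR (adjusted p = 0.0862 by limma, and 0.0143 with the replicate block). In both genes the genotypes did not overlap, in opposite directions.

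The shares of the family within each library make this difference visible without any scaling. Lce1m took 27.4%, 23.9% and 30.1% of Lce1 coverage in WT and 19.3%, 16.1% and 23.0% in HdR. Lce1a2 took 8.67%, 10.3% and 8.16% in WT and 11.9%, 16.3% and 11.8% in HdR, and Lce1a1 13.3%, 15.1% and 12.8% against 16.7%, 20.3% and 15.3%. Lce1d took 5.80% ± 0.630 in WT and 7.55% ± 0.517 in HdR (SD, n = 3). The shares of Lce1a1, Lce1a2, Lce1d and Lce1e were higher in every HdR sample than in any WT sample, those of Lce1m, Lce1b and Lce1k were lower, and the other 7 overlapped. Their longest transcripts run from 647 bases in Lce1b to 925 bases in Lce1g. The transcripts of the Lce1 genes share no 150-base window with another gene. Genes near one another did not move alike: Lce1b, with a lower share, lies between Lce1a1 and Lce1a2, and Lce1m stands apart from the rest, on the far side of the Lce3 genes. The shares of a family add to 100%, so a lower share of Lce1m raises the others.

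**Figure D2:**
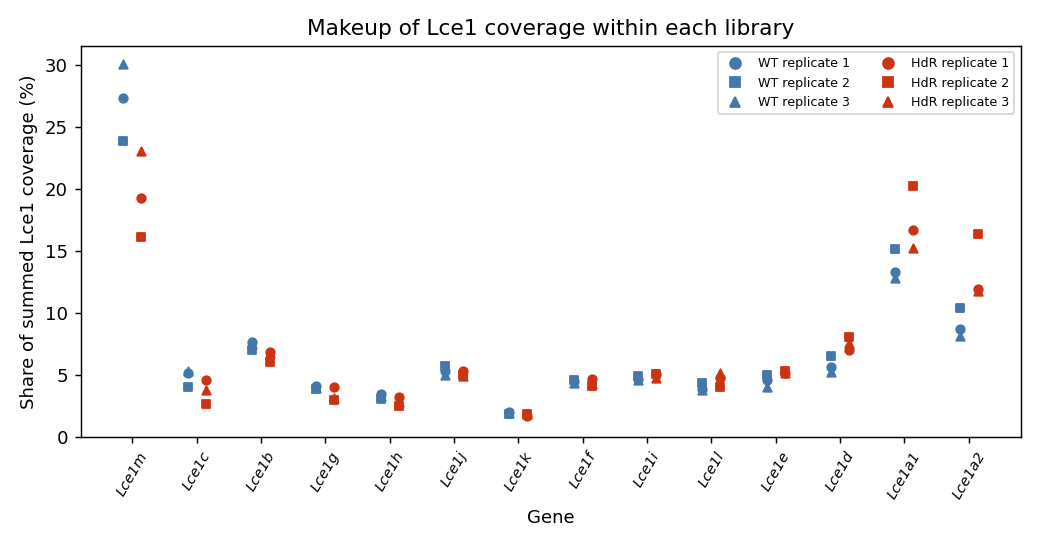
Share of summed Lce1 coverage taken by each of the 14 Lce1 genes within each library (%), ordered by the difference between genotype means, with WT in blue, HdR in red and a marker shape for each replicate number. Lce1m lies lower in HdR and Lce1a1 and Lce1a2 lie higher, without overlap.

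The size of the shift of the Lce1 family, and the direction of some of its genes, depend on the length step. Before it, 8 of the 14 log2 changes were below 0, with a median of -0.09. With the length trend removed, 14 of 14 log2 changes were below 0, with a median of -0.68, and limma called 9 genes lower. With the replicate block as well it called 11 lower. The gene that led was again Lce1m (log2 change -1.05; adjusted p = 0.0295 by limma), and Lce1a2 was at -0.07 (adjusted p = 0.735 by limma). Scaling to total bases gave a family median of -0.40, and shares within a library are not touched by that scaling.

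The Lce3 genes, those known from wounded and psoriatic skin, varied widely between the HdR samples. They summed to 53.9, 43.2 and 39.6 bases per Mb in WT and 101, 67.5 and 29.7 in HdR, so HdR skin held both the highest and the lowest value. Limma called 0 of the 6, with 0 at an unadjusted p under 0.05 in either direction, and voom called 0. The log2 changes were all above 0, from 0.02 in Lce3c to 0.67 in Lce3a, and their intervals were wide, from -0.28 to 1.63 in Lce3a. Lce3d read 14.8, 13.5 and 11.2 in WT, against 37.1, 23.6 and 9.26 in HdR (adjusted p = 0.276 by limma). Lce3c, the highest by coverage, read 21.0, 16.6 and 17.2 in WT, against 28.3, 16.6 and 13.3 in HdR (adjusted p = 0.957 by limma). Without HdR replicate 3, limma called Lce3a, Lce3b, Lce3d and Lce3f higher, together with Sprr2e and Sprr2g (7 members higher with Flg2, against 10.3% of all genes). Once the length trend was removed, 5 of the 6 changes were below 0, with a median of -0.10. Lce3c, Lce3d, Lce3e and Lce3f share windows with one another, 3.2% of those of Lce3d to 36.8% of those of Lce3f, so their values are in part joint.

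The Lce3, Sprr1 and Sprr2 genes ranked the HdR samples alike. Of the 15 tested, HdR replicate 1 was the highest of all 6 libraries in 13, against 10.4% of all genes, and HdR replicate 3 was the lowest in 12, against 11.1% of all genes. This count was made after the values were seen. The exceptions to the low place of HdR replicate 3 were Sprr1a, Sprr2e and Sprr2i. Sprr2e was lowest in WT replicate 2 (1.74), just under HdR replicate 3 (1.78). Keratins of stressed epidermis, chosen after their values were seen, were also low in HdR replicate 3. Krt6a read 179, 145 and 180 in WT, against 197, 197 and 83.8 in HdR, and Krt16 read 234, 190 and 220 against 312, 373 and 142. Krt1, a keratin of the suprabasal layers, read 1040, 1066 and 929 in WT, against 748, 570 and 281 in HdR. Krt10, also suprabasal, read 3648, 4485 and 4214 in WT, against 3680, 4097 and 3398 in HdR (log2 change -0.14; adjusted p = 0.659 by limma). Of the 10 suprabasal markers, Krt1 was the 1 called lower and Calm5 was called higher. With the length trend removed neither passed (limma adjusted p = 0.0820 for Krt1 and 0.174 for Calm5). The stress keratinocyte markers (10 genes, 9 tested, Il24 at 0 in WT replicate 2) summed to 907 to 1022 in WT and 702 to 1737 in HdR, with Areg and Hbegf called higher and 0 lower. At an unadjusted p under 0.05, limma also counted 0 lower there, as did voom at an adjusted p under 0.05.

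**Figure D3:**
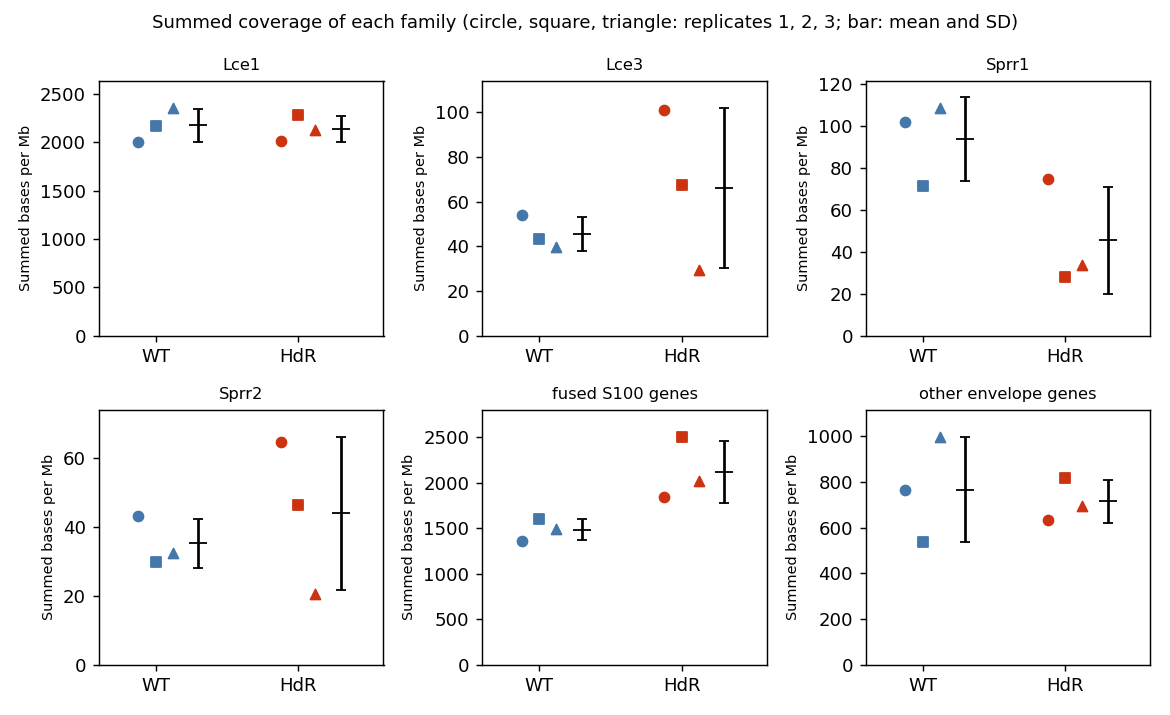
Summed coverage (bases per Mb) of the members of 6 groups in each library, with the mean and SD of each genotype beside the points (n = 3). The Lce1 sums of the genotypes overlap, and the Lce3 and Sprr2 sums of HdR span a wider range than those of WT. The fused S100 sums, mostly Flg2 and Hrnr, lie higher in all HdR samples under trimmed-mean scaling, while the means of Crnn and Rptn are lower.

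Lor, Ivl and Kprp did not pass. Lor encodes loricrin, the main protein of the envelope, and read 479, 366 and 715 in WT, against 452, 689 and 535 in HdR, with the HdR samples inside the WT range (log2 change 0.14; adjusted p = 0.721 by limma; 95% interval -0.49 to 0.76). Its change was -0.09 with the length trend removed. Ivl encodes involucrin, an early envelope scaffold, and read 212, 109 and 185 in WT, against 128, 73.2 and 89.9 in HdR. HdR replicate 1 lay above WT replicate 2, and the log2 change of -0.77 did not pass (adjusted p = 0.0641 by limma). In each genotype replicate 2 was the lowest for Ivl, and with the replicate block Ivl passed (adjusted p = 0.00400 by limma). Kprp, which encodes a keratinocyte proline-rich protein, read 74.97, 63.4 and 95.5 in WT, against 55.5, 57.4 and 69.1 in HdR (log2 change -0.34; adjusted p = 0.179 by limma). Lce6a read 84.6, 149 and 71.5 in WT, against 120, 177 and 112 in HdR. It was higher in HdR within each replicate number and passed with the block (log2 change 0.46; adjusted p = 0.228 by limma, and 0.0240 with the block). Lce6a was at -0.11 once the length trend was removed.

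Per kb of longest transcript, Lce1m led in WT skin with 676 bases per Mb per kb, followed by Lce1a1 (424), Lor (292), Lce1a2 (275) and Lce1b (247). Lce1m lay above Lce1a1 in every WT sample, while Lor overlapped both Lce1a1 and Lce1a2, and Lce1a2 overlapped Lce1b. Sprr1a stood at 101, Sprr4 at 89.2, Ivl at 87.8 and Hrnr at 82.1 per kb. The value of Sprr4 rests on its annotated transcript of 231 bases, which may be incomplete. Flg2 stood at 23.9 and Crnn at 14.8. The Lce3 genes ranged from 3.14 to 32.2 per kb, all below the lowest Lce1 gene, Lce1k (62.2). In HdR skin the order by mean was led by Lce1a1 (529.5), then Lce1m (474), Lce1a2 (401) and Lor (314), and Crnn stood at 0.785. Lce1a1 and Lce1m overlapped between HdR samples, with Lce1m above Lce1a1 in HdR replicate 3. Lce1a2 overlapped both of them and Lor.

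**Figure D4:**
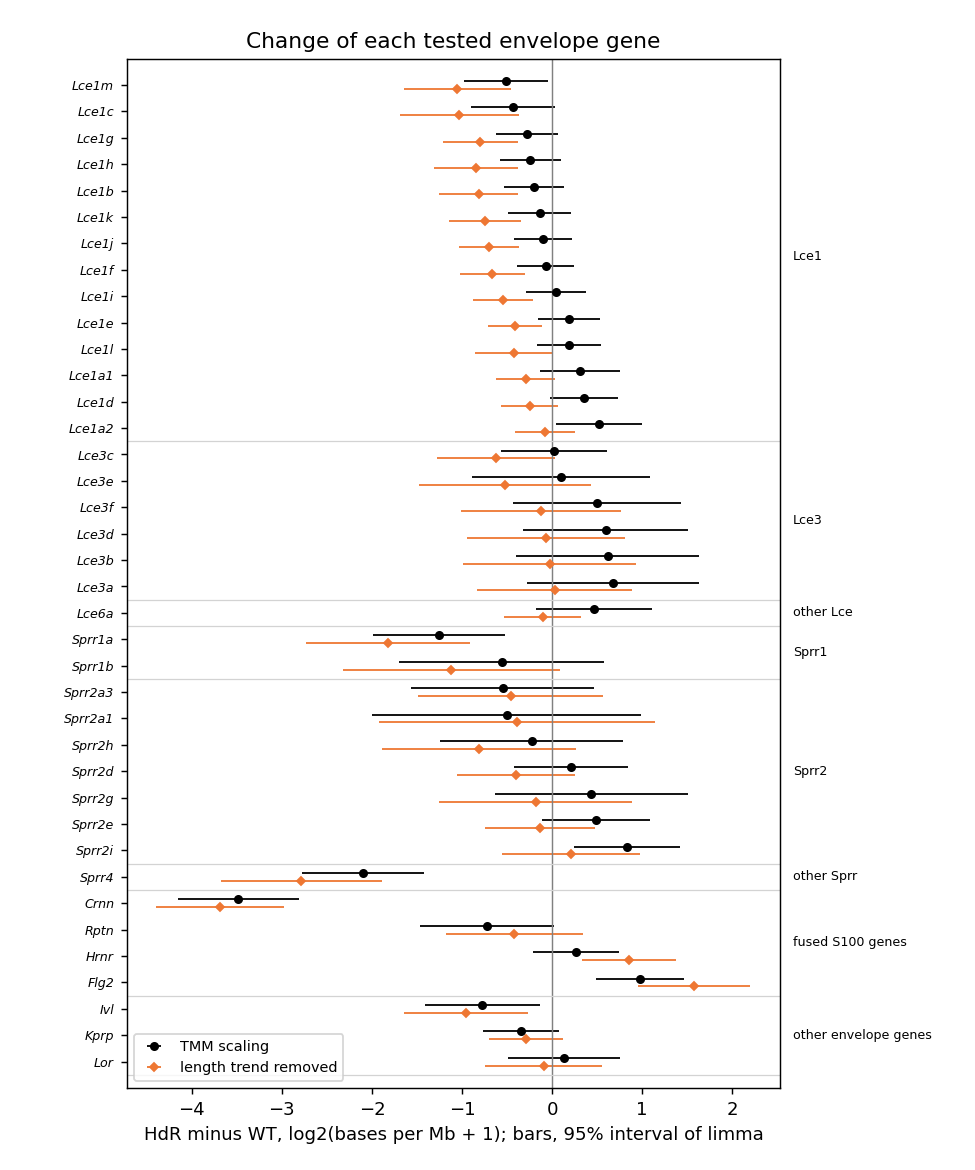
Log2 change (HdR minus WT) of each of the 38 tested members by family, with the 95% interval of limma, after trimmed-mean scaling (black) and with the length trend removed (orange). Crnn, Sprr4, Sprr1a and Flg2 stay away from 0 in both fits, while the Lce1 genes move to the left of 0 when the length trend is removed.

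The partners of the envelope genes changed in part. Of 15 tested genes of other envelope proteins, limma called 4 higher and 5 lower, beside 12.7% and 17.9% of all genes, with a median log2 change of 0.12 (2 higher and 4 lower with the length trend removed, median -0.32). Those higher were the protease inhibitor genes Csta1 (1.42) and Cstb (1.01), Sbsn, which encodes suprabasin (0.74), and Krtdap, a differentiation-associated gene of keratinocytes (0.71). Those lower were Tchhl1, Tchh, Dsp, which encodes the desmosome plaque protein desmoplakin (-1.37), Cdsn, the gene of the corneodesmosome protein corneodesmosin (-1.23), and Ppl, the gene of the envelope scaffold periplakin (-0.98). The lower calls numbered 2 without WT replicate 1 or HdR replicate 2 and 3 without WT replicate 3. The higher calls numbered 0 without WT replicate 1, 1 without WT replicate 3 or HdR replicate 2, and 2 without HdR replicate 1. Csta1 read 215, 388 and 187 in WT, against 574, 1067 and 485 in HdR, so the genotypes were apart. Of these 9, Cstb (0.37), Krtdap (0.04) and Ppl (-0.52) did not pass with the length trend removed.

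Of 19 tested genes of crosslinking and filaggrin processing, limma called 0 higher and 4 lower, with a median of -0.45, beside 12.7% higher and 17.9% lower over all genes. At an unadjusted p under 0.05 limma counted 0 higher and 9 lower. Voom called 1 higher and 10 lower, beside 3398 higher and 4647 lower of all 15049 genes. With the replicate block 10 were lower, beside 27.2% of all genes. Padi3 and Padi1, whose products convert arginine to citrulline in filaggrin and trichohyalin, fell by 2.42 and 1.49 on the log2 scale (limma adjusted p = 0.00161 and 0.00935). Padi3 read 8.16, 7.69 and 12.1 in WT, against 0.611, 1.27 and 0.861 in HdR. Abca12, a lipid transporter gene of lamellar granules, and Casp14, a caspase gene that acts on filaggrin, fell by 1.06 and 0.70. Abca12 did not pass with the length trend removed (log2 change -0.50; adjusted p = 0.123 by limma). Lower calls numbered 2 when the first WT, the third WT or the second HdR library was left out, and without WT replicate 2 there were 9. Tgm1, the transglutaminase gene of the envelope, read 54.9, 42.2 and 49.6 in WT, against 52.3, 42.5 and 47.9 in HdR (log2 change -0.04; adjusted p = 0.873 by limma). Tgm3 was at -0.48 and did not pass (adjusted p = 0.0820 by limma, and 0.0308 with the block).

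Of 27 transcription factor genes that act on envelope genes, 4 were higher and 3 lower by limma, with a median of -0.10, beside 12.7% higher and 17.9% lower over all genes. After removal of the length trend 4 passed, all higher, and the median was 0.05. The higher genes were the AP-1 genes Fos (1.41) and Junb (0.68), Hopx (1.13) and Nfe2l2 (0.49), the gene of the oxidative stress factor NRF2. Those lower included Nfe2l1 (-0.95) and Rora (-0.76). The higher calls numbered 2 when the first or the third WT library or the first or the second HdR library was left out, and the lower calls 8 without WT replicate 2. Without the first or the third WT library or the second HdR library no factor gene passed as lower. Fos read 33.5, 31.7 and 27.8 in WT, against 68.6, 93.6 and 91.4 in HdR. Klf4 and Grhl3, genes of factors needed for the skin barrier, did not pass (log2 changes 0.28 and -0.28; limma adjusted p = 0.271 and 0.457).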

How the data were processed

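RNA of 3 WT and 3 HdR samples of ear skin was sequenced. The deposited table gives a whole number per gene and library that was read here as coverage, a signal in aligned bases. That reading comes from the values alone, which gather at multiples of 300, the bases of a read pair (10.2% of low values, 0.333% by chance). They were not taken as a count of reads, so no count model was used. The build was GRCm38 per the submitters' processing notes. The aligner, counter, annotation and strand setting, not given in the sources used here, cannot be stated.

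Values were divided by library totals scaled with trimmed means of M values (trimming 30% by log ratio and 5% by intensity) to bases per Mb. The 15049 genes that reached 1 base per Mb in 3 or more libraries were fitted with robust limma-trend (limma 3.58.1, R 4.3.3) on log2(value + 1), two-sided, with Benjamini-Hochberg adjustment and a threshold of 0.05. The script was tested on simulated data. Intervals are 95%. The length trend was a natural spline of 4 degrees of freedom on log2 length of the longest GENCODE M21 transcript, taken from each library (99.0% of tested genes had a length). No genome sequence was read: promoters came from RefSeq on GRCm38.p6 and transcript windows of 150 bases from GENCODE.

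Replicate numbers were treated as pairing the samples although the labels state no pairing. Same-numbered libraries of both genotypes deviated together (r = 0.163, 0.416 and 0.366 across genes, which are not independent replicates). Libraries of unlike number were not compared, so the pairing itself was not tested, and the block was chosen from these same data. The alternatives were other scalings, filters, a pseudocount of 0.1, the block, the length trend, voom with sample weights, a threshold of 0.1 and leaving out each library. The members, gene lists and tests were chosen with earlier results of these data known. Any member could be named, and from other lists the up to 4 genes with the smallest p, with Tgm1, Tgm3, Klf4, Grhl3, Krt1 and Krt10. Beyond this, the called genes of the 3 related lists were named after their values were seen, except 1 that is not reported here.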

Additional observations from a re-analysis of the deposited data

How the results depend on the processing

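Crnn and Sprr4 passed as lower under each of the 17 alternatives, including each left-out library. Over all genes, 1904 were higher and 2701 lower. Scaling to total bases gave 917 and 4305, no filter 1017 and 1127, and voom with sample weights 3398 and 4647, while the replicate block gave 4094 lower and the length trend 1275 lower. Of the calls, 41.3% were higher, against 17.6% with total bases, 53.1% with quantile normalization and 56.5% with the length trend removed. Leaving out a library gave 197 to 2657 higher and 230 to 3359 lower.

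Of the members, 2 were higher, against 1 with total bases, no filter or a filter of 5, 5 with the replicate block and 6 with voom; left-out libraries gave 0 (WT replicates 1 and 3) to 7 (HdR replicate 3). Of the members, 3 were lower, against 7 with total bases or the block, 12 with the length trend removed, 17 with both, and 5 with voom or a threshold of 0.1. With no filter Crnn and Sprr4 were lower. Left-out libraries gave 2 to 4. The cause was not tested.

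Family medians moved with total bases to -0.40 (Lce1), -0.54 (fused S100 genes) and -0.66 (Lor, Ivl and Kprp), and with quantile normalization to -0.42 (fused S100 genes). With the length trend removed, with or without the block, they were -0.68 (Lce1), -0.11 (Lce6a), -0.39 (Sprr2), -2.78 (Sprr4) and 0.22 (fused S100 genes, -0.23 before). With no filter Sprr3 joined Sprr4, with a median of -1.06. Without a library the medians were -0.14 to -0.04 for Lce1, 0.17 to 1.08 for Lce3, -0.01 to 0.51 for Sprr2, -1.38 to -0.61 for Sprr1 and -0.36 to 0.016 (without HdR replicate 3) for the fused S100 genes.

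Other envelope proteins (4 higher, 5 lower) had 2 higher with total bases, quantile normalization or the length trend removed, and 1 higher and 2 lower with no filter; left-out libraries gave 0 to 4 and 2 to 6. Crosslinking genes (0 higher, 4 lower) had 1 higher with voom and with the length trend and block. Their lower calls were 9 with total bases or a threshold of 0.1, 2 with no filter, 10 with the block or voom and 7 with the length trend and block, and left-out libraries gave 0 to 0 and 2 to 9. Transcription factors (4 higher, 3 lower) had 2 higher with total bases or no filter and 7 with the length trend and block. Their lower calls were 5 with total bases, 0 with no filter or the length trend removed, 6 with the block and 9 with voom; left-out libraries gave 2 to 4 and 0 to 8.

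Directions of single members reversed with total bases for Hrnr (-0.053), Lce1a1 (-0.012), Lce1e (-0.13), Lce1i (-0.27), Lce1l (-0.13), Lce3c (-0.28), Lce3e (-0.17), Lor (-0.18) and Sprr2d (-0.074), and with quantile normalization for Hrnr (-0.26) and Lor (-0.25). The length trend, with or without the block, reversed Lce1a1 (-0.29), Lce1a2 (-0.075), Lce1d (-0.25), Lce1e (-0.41), Lce1i (-0.55), Lce1l (-0.42), Lce3b (-0.027), Lce3c (-0.62), Lce3d (-0.069), Lce3e (-0.53), Lce3f (-0.13), Lce6a (-0.11), Lor (-0.093), Sprr2d (-0.40), Sprr2e (-0.13) and Sprr2g (-0.18). Voom reversed Lce3c (-0.030), Lce3e (-0.15) and Sprr2d (-0.0043). Left-out libraries gave both signs in Lce1i (-0.017 to 0.090), Lce3c (-0.28 to 0.24), Lce3e (-0.34 to 0.66), Lor (-0.070 to 0.40), Sprr2a1 (-1.08 to 0.43), Sprr2a3 (-0.996 to 0.019), Sprr2g (-0.0080 to 1.04) and Sprr2h (-0.78 to 0.26). With the length trend removed, the block also brought Ivl, Lce1e, Lce1l, Lce3c and Sprr1b past the threshold as lower. Members that did not reach 1 base per Mb, about 11.7 to 23.6 read pairs, in 3 or more libraries were not tested. Sprr2f was among them, although it read 2.22 and 2.49 in HdR replicates 1 and 2.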
